A study of Homo sapiens with 4 samples.

Results

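The genes that carry proteins into mitochondria and trim them on arrival were examined in 4 prostate cancer cell lines. The set holds 39 nuclear genes, chosen by symbol from what their products are known to do, and all 39 were among the 22637 genes of the count table. They cover the outer-membrane TOM and SAM complexes, the intermembrane-space MIA pathway and small TIM chaperones, the inner-membrane TIM22 and TIM23 complexes, the import motor, the processing peptidases and the matrix proteases CLPP and LONP1.

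LNCaP is a human prostate adenocarcinoma line that is castration-sensitive. C4-2B descends from it and grows despite castration. LN-OlapR came from LNCaP and 2B-OlapR from C4-2B, both by long exposure to rising doses of olaparib, a PARP inhibitor, and the resistant lines were kept in culture with the drug. The study asked how mitochondria differ in resistant cells. For RNA-seq all 4 lines were labelled untreated and had grown in plates for 48 hours without a selection agent, although the study's methods give a longer time. Each line was represented by 1 library from a single RNA sample, so a difference between lines has no replicate check, and what belongs to resistance and what belongs to 1 culture or 1 derived line cannot be told apart.

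The libraries held between 19950537 and 26394267 counts. The deposited estimated counts were rounded and scaled with the TMM method, and levels are given as normalized counts scaled to the library (CPM), always in the order LNCaP, LN-OlapR, C4-2B and 2B-OlapR. Ratios are on a log2 scale with a pseudocount of 0.5 counts, and the interval beside a ratio is a 95% interval from the 2 counts, so it says nothing of differences between cultures. The comparison of LN-OlapR with LNCaP is called the LN pair and that of 2B-OlapR with C4-2B the 2B pair. In bulk RNA, more cells that express a gene and more of its RNA per cell cannot be told apart.

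All 10 markers of prostate luminal epithelium were detected in each library, with a summed level of 3752, 7230, 5722 and 4864 normalized CPM. Of the 13 markers of basal epithelium, fibroblasts, endothelium and blood cells, 4 were listed, and the summed level of any of these lists was at most 16.1 normalized CPM in any library. The LNCaP library stood apart in KLK3, which encodes prostate-specific antigen, at 53.1 normalized CPM against 2685, 2412 and 1870 in the other 3. Its part in the ratios of the LN pair was not tested, and the ratios of LN-OlapR that change side or pass or leave the 1.3-fold line with C4-2B in place of LNCaP are given after those of the LN pair.

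Nearly all mitochondrial proteins are made in the cytosol. They pass the outer membrane through the TOM pore, and from there SAM inserts barrel proteins into the outer membrane, MIA folds small proteins in the intermembrane space, small TIM chaperones hand carrier proteins to TIM22, and TIM23 with its Hsp70 motor pulls presequence proteins into the matrix. There the presequence is cut off by the processing peptidase, and proteases such as CLPP and LONP1 degrade misfolded proteins. PINK1, the kinase the study turned to, uses the same route: it is imported and cut in healthy mitochondria and is held at the TOM complex when import fails.

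The import genes were expressed in every library and differed little between the lines of a pair. Their summed level was 3036, 3293, 3243 and 3664 normalized CPM, which made up 0.309%, 0.316%, 0.333% and 0.365% of all counts. The 2B-OlapR library held the highest sum and the LNCaP library the lowest. The median over the 39 genes was 72.6, 67.6, 76.1 and 83.7 normalized CPM, so the order of the medians differed from that of the sums, with LN-OlapR lowest.

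In the LN pair the median log2 ratio of the 39 genes was 0.08, with 23 above 0 and 16 below. When libraries were scaled by total counts it was -0.0026, and that of all genes was -0.088. With TMM scaling, the 15373 genes analyzed had a median of -0.0040 and 49.6% were above 0. At least 1.3-fold higher in LN-OlapR were 6 import genes, beside 17.8% of all genes, and at least 1.3-fold lower were 2, beside 18.4%. The highest were CLPP at 0.65, TOMM40L at 0.54, IMMP2L at 0.51 and PAM16 at 0.41. The lowest were TIMM10B at -0.89, IMMP1L at -0.43, TIMM8A at -0.35 and TOMM7 at -0.23. With C4-2B in place of LNCaP, the median was -0.07 and 14 of the 39 genes were above 0.

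Many LN-OlapR ratios differed when C4-2B, which is not the parent of LN-OlapR, took the place of LNCaP. Between these 2 lines, 24.1% of all genes were at least 1.3-fold higher in C4-2B and 25.1% at least 1.3-fold lower. How many of all genes changed side or passed the line with this swap is not given here. Set against C4-2B, 15 of the 39 genes lay on the other side of 0 in LN-OlapR. From above to below 0 went TOMM40L at -0.17, PAM16 at -0.13, CLPP and LONP1 at -0.01, PARL at -0.27, TIMM22 at -0.10, TIMM44 at -0.07, TIMM50 at -0.04, TOMM6 at -0.14, TIMM10 at -0.11, TIMM17B at -0.11 and TIMM23 at -0.07. From below to above 0 went TOMM7 at 0.52, TIMM8B at 0.04 and SAMM50 at 0.13. At 1.3-fold, 5 genes were no longer past the line (CLPP, TOMM40L and PAM16, with PMPCB at 0.04 and IMMP1L at -0.17), and 5 others were (TOMM7, with TOMM20 at 0.40, GRPEL1 at 0.52, TIMM8A at -0.41 and TIMM29 at -0.59).

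In the 2B pair the median log2 ratio was 0.13, with 30 genes above 0 and 9 below, against a median of -0.00026 and 50% above 0 over the 15527 genes analyzed. At least 1.3-fold higher in 2B-OlapR were 8 import genes, beside 18.7% of all genes, and 1 was at least 1.3-fold lower, beside 22.1%. The highest were GRPEL1 at 0.68, IMMP1L at 0.56, PMPCA at 0.55 and TIMM17A at 0.54. The lowest were ROMO1 at -0.46, PMPCB at -0.28, TIMM9 at -0.24 and TIMM8A at -0.18. Scaled by total counts, the median was 0.09, with 24 genes above 0, beside a median of -0.042 over all genes.

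The parental lines differed by ratios of the same size. In C4-2B against LNCaP the median log2 ratio of the 39 genes was 0.11, with 27 above 0, beside 48.6% of all 15580 genes analyzed. At least 1.3-fold higher in C4-2B were 6 import genes, beside 24.1% of all genes, and 1 was at least 1.3-fold lower, beside 25.1%. The highest were TOMM40L at 0.71, CLPP at 0.66 and PARL at 0.55, and the lowest were TOMM7 at -0.75, TIMM17A at -0.33 and IMMP2L at -0.30. This comparison shares the LNCaP library with the LN pair and the C4-2B library with the 2B pair.

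**Figure D1:**
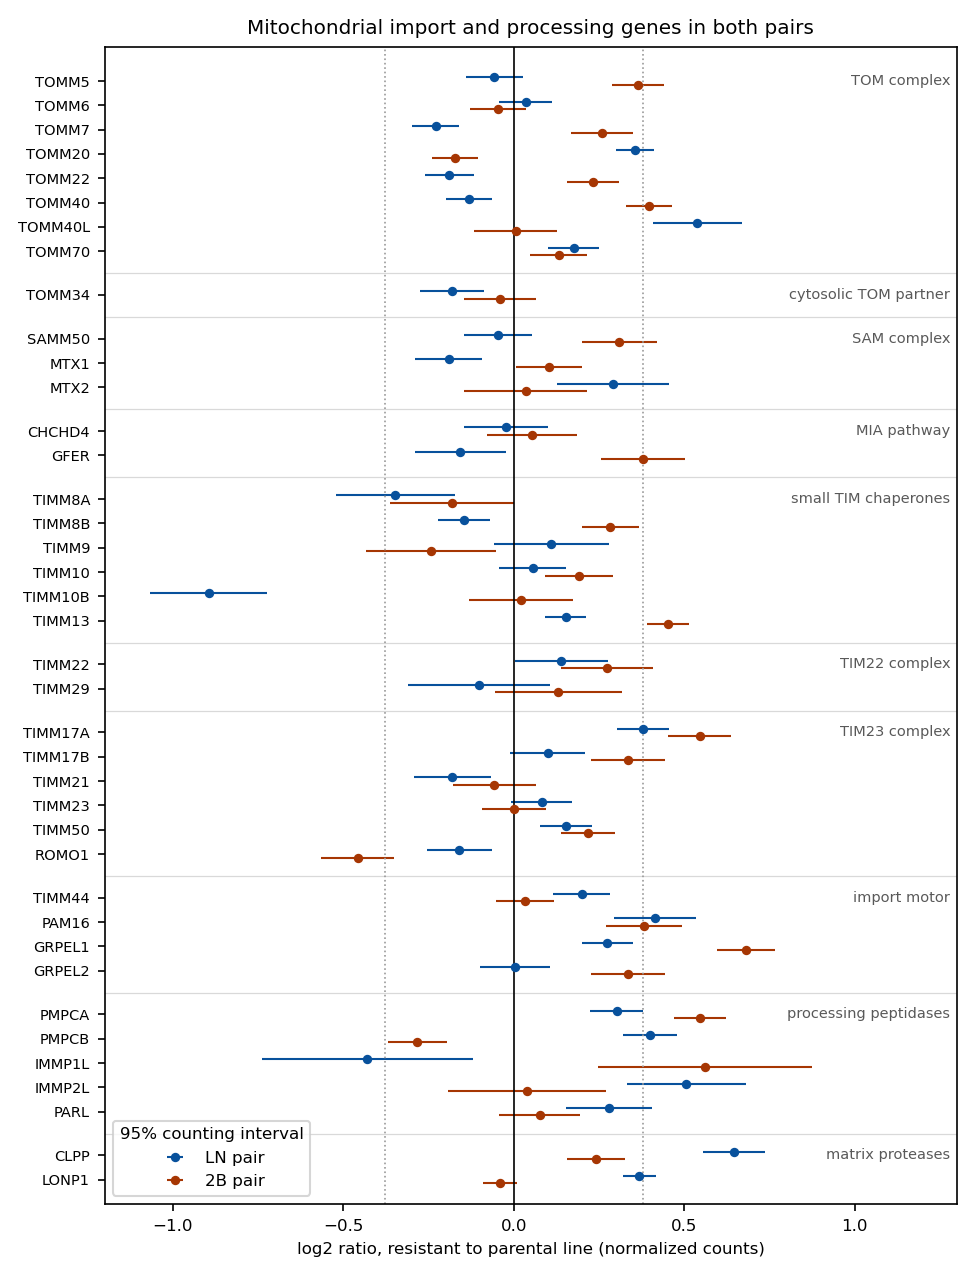
Log2 ratio between the resistant and the parental line (x axis, normalized counts) for each of the 39 import genes (y axis), grouped by complex, in the LN pair (blue) and the 2B pair (red), with 95% counting intervals as bars and dotted lines at 1.3-fold. The ratios run from -0.89 (TIMM10B) to 0.65 (CLPP) in the LN pair, and those of the 2B pair from -0.46 (ROMO1) to 0.68 (GRPEL1).

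The pairs went the same way for 22 genes and opposite ways for 17. Of the 22, 18 had a ratio above 0 in both pairs and 4 below 0 in both. Over the 14602 genes analyzed in both pairs, 28.5% were above 0 in both, 29.1% below 0 in both and 42.4% on opposite sides of 0. Past 1.3-fold, TIMM17A and PAM16 were higher in both resistant libraries, beside 5.18% of all genes. None of the 39 was at least 1.3-fold lower in both, beside 6.52% of all genes, and IMMP1L alone was past 1.3-fold in opposite directions, beside 6.2%. For 9 of the 39 genes a pseudogene, near copy or readthrough was also listed in the table, and the medians of the other 30 genes were 0.12 in the LN pair and 0.13 in the 2B pair.

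No import gene passed the test over both pairs. edgeR's quasi-likelihood test of both resistant against both parental libraries, with the pair as a block and 1 residual degree of freedom, called 0 of 39 import genes and 0 of 15645 genes in all (0%) at an adjusted p of 0.05. At an unadjusted p under 0.05 were 1279 genes, or 8.18%, of which 2 were import genes. TIMM17A had a log2 ratio of 0.46, higher in 2 of 2 pairs, with an edgeR p of 0.0359 and an adjusted p of 0.601. GRPEL1 had 0.48, higher in 2 of 2 pairs, with an edgeR p of 0.0493 and an adjusted p of 0.609. DESeq2 with the same block called 167 genes and 0 import genes, and the lowest adjusted p of an import gene in any edgeR or DESeq2 alternative was 0.598.

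Promoters of these genes were examined for 2 motifs known from nuclear genes of mitochondria. NRF1, a factor that binds many such promoters, is known for the motif GCGCATGC, and GABP and its ETS relatives for CCGGAAG. Both were searched on both strands in RefSeq promoters of GRCh38.p14, from 250 bases before to 50 bases after a gene's start, which were matched for 35 of the 39 genes by symbol. The NRF1 motif was found in 5 (14.3%), against 3.27% of 27305 promoters in all and 5.76% of the 10968 promoters of genes analyzed. The ETS motif was found in 16 (45.7%), against 10.7% and 19.5%. A match is a run of letters and not a site shown to be bound.

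Stretches of 30 bases around the NRF1 motif are shown for PAM16, TIMM10B, TOMM7 and CHCHD4. PAM16 was 1 of the 2 genes at least 1.3-fold higher in both resistant libraries than in their parental ones. TIMM10B was the lowest gene of the LN pair, TOMM7 the lowest of C4-2B against LNCaP, and CHCHD4 differed little between any of the lines. Each stretch is read 5′ to 3′ on the strand of the gene, and capitals mark the motif or its reverse complement.
PAM16, chr16:4351348-4351377, minus strand: actgaggcaatGCGCATGCccagcgccgta
TIMM10B, chr11:6481488-6481517, plus strand: agtggcgtacgGCATGCGCcggtggcgtga
TOMM7, chr7:22822954-22822983, minus strand: atcgcaaccacGCATGCGCctactactgcc
CHCHD4, chr3:14125004-14125033, minus strand: ccagtgtttctGCGCATGCgcgcggcgaga
In CHCHD4 the motif overlaps a second copy on the other strand.

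Stretches around the ETS motif are shown for TOMM20 and PMPCB, which stood on opposite sides of 0 in the 2 pairs, and for ROMO1, the lowest gene of the 2B pair. Capitals again mark the motif.
TOMM20, chr1:235128841-235128870, minus strand: gttgactgggaCCGGAAGtggcgtgtgctc
PMPCB, chr7:103297407-103297436, plus strand: aggtcgcgaccCCGGAAGcacatccttcat
ROMO1, chr20:35699334-35699363, plus strand: gccccaggctcCCGGAAGtgctgcccggcg
The motif begins 22 bases before the start of TOMM20, 17 before that of PMPCB and 60 before that of ROMO1, which has another copy 39 bases before its start.

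Medians of genes with and without a motif are given as a description. In the LN pair the median log2 ratio was -0.02 for the 5 genes with the NRF1 motif and 0.09 for the others with a promoter, and in the 2B pair it was 0.05 and 0.12. For the ETS motif the medians were 0.07 with and 0.10 without in the LN pair, and 0.03 and 0.26 in the 2B pair.

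At the outer membrane, the 8 TOM genes split by pair. TOMM20, the main receptor for presequences (ENSG00000173726.11, minus strand, chr1:235109336-235128936 in GENCODE release 29 on GRCh38), stood at 190, 243, 185 and 164 normalized CPM. LN-OlapR was the highest library for TOMM20 and 2B-OlapR the lowest. Its log2 ratio was 0.36 (0.30 to 0.41) in the LN pair and -0.17 (-0.24 to -0.11) in the 2B pair. Pseudogenes TOMM20P1 and TOMM20P4 were listed with up to 6.57% of its counts.

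The central receptor and the pore had the opposite order. TOMM22, which links the receptors to the pore (chr22:38681948-38685421, plus strand), stood at 131, 115, 123 and 144 normalized CPM, with ratios of -0.19 (-0.26 to -0.12) and 0.23 (0.16 to 0.31). TOMM40, the pore itself (chr19:44890569-44903689, plus strand), stood at 146, 133, 150 and 198. Its ratio was -0.13 (-0.20 to -0.06) in the LN pair and 0.40 (0.33 to 0.47) in the 2B pair, and 2B-OlapR lay above the other 3 libraries in both genes. The pseudogenes of TOMM40 held up to 15.4% as many counts as the gene, and reads may be split among them.

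TOMM7, a small subunit that helps hold PINK1 at the pore, differed most between the parental lines. It stood at 145, 124, 86.2 and 103 normalized CPM, so that both libraries of the LNCaP background were above both of the C4-2B background. Its log2 ratio was -0.23 (-0.30 to -0.16) in the LN pair, 0.26 (0.17 to 0.35) in the 2B pair and, in C4-2B against LNCaP, -0.75 (-0.83 to -0.67). With C4-2B in place of LNCaP the LN-OlapR ratio was 0.52.

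TOMM40L, a paralog of the pore gene, was low in 1 library. It stood at 31.8 normalized CPM in LNCaP and at 46.3, 51.9 and 52.2 in the others. The LN pair ratio was 0.54 (0.41 to 0.67), the 2B pair ratio 0.01 (-0.12 to 0.13), and LN-OlapR against C4-2B gave -0.17. The remaining TOM genes were the small subunit TOMM5 at -0.06 and 0.37, the small subunit TOMM6 at 0.03 and -0.05, and the receptor for carrier proteins TOMM70 at 0.18 and 0.13 in the LN and the 2B pair. TOMM6 lies wholly within a same-strand gene, AL365205.1, which was listed at 304, 350, 459 and 606 counts. TOMM34, a cytosolic co-chaperone that brings precursors to TOM, was at -0.18 and -0.04.

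The 5 SAM and MIA genes lay on both sides of 0 in the LN pair and above it in the 2B pair, where MTX2 changed side, from 0.03 to -0.0072, when libraries were scaled by total counts. SAMM50, the core of SAM, had a log2 ratio of -0.05 (-0.15 to 0.05) in the LN pair and 0.31 (0.20 to 0.42) in the 2B pair. Its partners were MTX1 at -0.19 and 0.10 and MTX2 at 0.29 and 0.03. GFER, the oxidase that recharges the MIA receptor, stood at 38.6, 34.6, 44.8 and 58.3 normalized CPM, with 2B-OlapR the highest. The ratios of GFER were -0.16 (-0.29 to -0.02) and 0.38 (0.26 to 0.50). CHCHD4, that receptor, stood at 41.6, 40.9, 43.2 and 44.9 normalized CPM and was within 0.1 of 0 on the log2 scale in both pairs.

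Among the small TIM chaperones, TIMM10B in LN-OlapR was the farthest value of the whole set. TIMM10B binds the TIM22 complex from the intermembrane space (ENSG00000132286.12, chr11:6481447-6484679, plus strand). It had 851, 397, 683 and 702 counts, or 31.7, 17.0, 33.4 and 33.9 normalized CPM. LN-OlapR was 1.86-fold lower than LNCaP, and the other 3 libraries lay within 31.7 and 33.9. The log2 ratio was -0.89 (-1.07 to -0.72) in the LN pair and 0.02 (-0.13 to 0.17) in the 2B pair.

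The chromosomal surroundings of TIMM10B were also lower in LN-OlapR. The median log2 ratio of its 20 nearest analyzed genes was -0.46, with 2 of 20 above 0, against -0.04 in the 2B pair. ARFIP2, which shares 33 exon bases with TIMM10B on the opposite strand, had 2075, 1401, 2236 and 2091 counts. The part of the surroundings in the value of TIMM10B was not tested.

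The other small TIM genes were closer to their parental line than TIMM10B in the LN pair and farther from it in the 2B pair. TIMM13, which chaperones precursors together with TIMM8A, stood at 170, 189, 175 and 240 normalized CPM, with ratios of 0.15 (0.09 to 0.21) and 0.45 (0.39 to 0.52), and 2B-OlapR was the highest library. TIMM13 shares 257 exon bases on the same strand with LMNB2, which was listed at 5833, 5970, 5742 and 5942 counts, so reads there may not have been told apart. Of the 20 nearest genes of TIMM13, 18 were above 0 in each pair, with medians of 0.29 and 0.31. TIMM8A, on the X chromosome (chrX:101345659-101349196, minus strand), stood at 24.2, 19.0, 25.2 and 22.2. It was lower in both resistant libraries than in their parental ones, at -0.35 (-0.52 to -0.17) and -0.18 (-0.36 to 0.00). TIMM8B, its autosomal paralog, stood at 114, 103, 99.7 and 121, with ratios of -0.15 and 0.28.

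TIMM9 and TIMM10 form the chaperone ring that escorts carrier proteins. TIMM9 stood at 21.8, 23.5, 23.4 and 19.7 normalized CPM, with 2B-OlapR lowest and a 2B ratio of -0.24 (-0.43 to -0.05). In the 2B pair the median of the 20 nearest genes of TIMM9 was -0.56, with 2 of 20 above 0. TIMM10 stood at 65.5, 68.0, 73.4 and 83.7, with ratios of 0.06 and 0.19.

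In the TIM22 complex, which inserts carrier proteins into the inner membrane, the channel gene TIMM22 had log2 ratios of 0.14 (0.00 to 0.28) and 0.27 (0.14 to 0.41). Its subunit TIMM29 was at -0.10 and 0.13, with both intervals holding 0, and stood higher in both libraries of the C4-2B background (21.6 and 23.6 normalized CPM) than in LNCaP and LN-OlapR (15.3 and 14.3).

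TIMM17A was 1 of the 2 genes at least 1.3-fold higher in both resistant libraries. It encodes a membrane subunit of TIM23 (ENSG00000134375.11, chr1:201955491-201970661, plus strand) and stood at 96.0, 125, 76.1 and 111 normalized CPM. Both resistant libraries lay above both parental ones, by 1.3-fold in the LN pair (log2 0.38, 0.30 to 0.46) and 1.46-fold in the 2B pair (0.54, 0.45 to 0.64). The LN value is just past the 1.3-fold line, and scaled by total counts it was 0.29, short of it. With C4-2B in place of LNCaP the LN-OlapR ratio was 0.71.

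ROMO1, a small subunit of TIM23, was the lowest gene of the 2B pair. It stood at 74.2, 66.4, 80.2 and 58.4 normalized CPM, and both resistant libraries lay below both parental ones. Its ratios were -0.16 (-0.26 to -0.06) and -0.46 (-0.56 to -0.35). The other TIM23 genes were TIMM17B at 0.10 and 0.33, the channel TIMM23 at 0.08 and 0.00, the receptor TIMM50 at 0.15 and 0.22, and TIMM21, which meets the TOM complex, at -0.18 and -0.06. TIMM23 has a near copy, TIMM23B, listed at 442, 335, 244 and 271 counts, so its own counts are uncertain.

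The import motor was the group with every gene above 0 in both pairs, though 2 of the 8 ratios were within 0.04 of 0 and changed side when libraries were scaled by total counts: GRPEL2 in the LN pair, from 0.0026 to -0.08, and TIMM44 in the 2B pair, from 0.03 to -0.0088. PAM16, which regulates the Hsp70 motor at the channel (ENSG00000217930.8, chr16:4331549-4355607, minus strand), stood at 38.4, 51.1, 55.8 and 72.7 normalized CPM. PAM16 was 1.33-fold above LNCaP in LN-OlapR (log2 0.41, 0.29 to 0.53) and 1.3-fold above C4-2B in 2B-OlapR (0.38, 0.27 to 0.49). LN-OlapR, however, lay below C4-2B, and with C4-2B in place of LNCaP the ratio was -0.13. Under total counts both ratios of PAM16 were short of 1.3-fold, at 0.33 and 0.34. A readthrough transcript with CORO7 was listed at 4, 0, 37 and 0 counts, far under the 1031 to 1507 counts of PAM16.

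GRPEL1, which releases nucleotide from the motor's Hsp70, had the largest ratio of the 2B pair. It stood at 103, 125, 87.1 and 140 normalized CPM, and both resistant libraries lay above both parental ones. The log2 ratio was 0.27 (0.20 to 0.35) in the LN pair and 0.68 (0.60 to 0.77), or 1.60-fold, in the 2B pair. Of the 20 nearest genes of GRPEL1 on chromosome 4, 16 were above 0 in the 2B pair, with a median of 0.53, and the median was 0.03 in the LN pair. GRPEL2, its paralog, was at 0.0026 and 0.34, and TIMM44, which ties the motor to TIM23, at 0.20 and 0.03.

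HSPA9, the mitochondrial Hsp70 that this motor turns around, was not in the set of 39 and is given from a list of other import factors. It stood at 396, 522, 403 and 696 normalized CPM, so both resistant libraries were above both parental ones. The log2 ratios were 0.40 (0.36 to 0.43) and 0.79 (0.75 to 0.83), with HSPA9 at an edgeR p of 0.0213 and an adjusted p of 0.575.

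**Figure D2:**
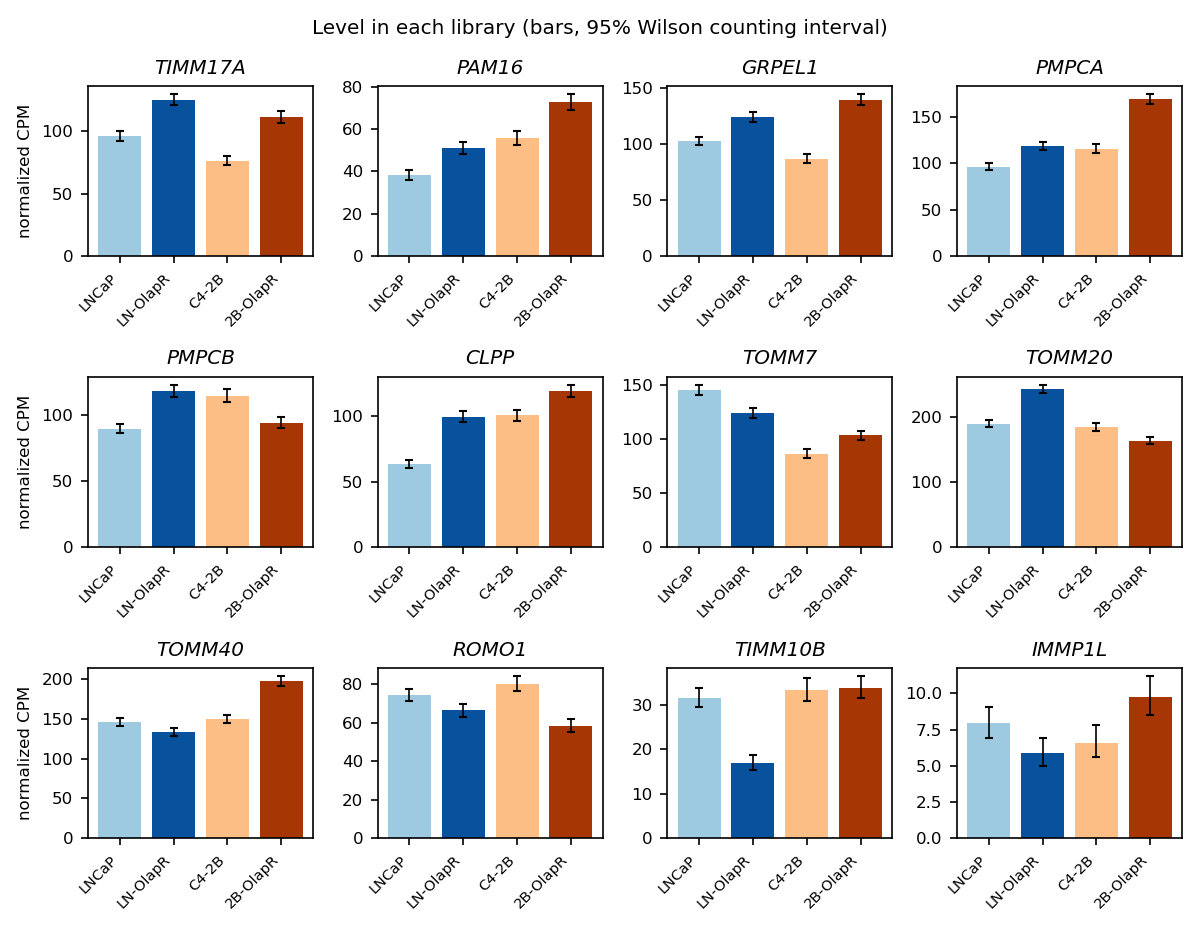
Level of 12 import genes in each library (y axis, normalized CPM from 0; x axis, the 4 cell lines in light and dark blue for LNCaP and LN-OlapR and light orange and dark red for C4-2B and 2B-OlapR), with 95% Wilson counting intervals as bars. TIMM17A and GRPEL1 stood higher in both resistant libraries than in both parental ones, CLPP was low in LNCaP alone (63.7), and TIMM10B was low in LN-OlapR alone (17.0).

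The subunits of the matrix processing peptidase parted in 2B-OlapR. PMPCA, which recognizes presequences (ENSG00000165688.14, chr9:136410570-136423761, plus strand), stood at 96.6, 119, 116 and 169 normalized CPM. PMPCB, which holds the catalytic site and makes the first cut in PINK1 (ENSG00000105819.15, chr7:103297422-103329511, plus strand), stood at 89.2, 118, 114 and 93.9. PMPCA was highest in 2B-OlapR, with a 2B ratio of 0.55 (0.47 to 0.62) and an LN ratio of 0.30 (0.22 to 0.38). The 2B ratio of PMPCB was -0.28 (-0.37 to -0.20) and its LN ratio 0.40 (0.32 to 0.48).

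The surroundings of PMPCB had like values. The median of its 20 nearest genes was 0.51 in the LN pair and -0.28 in the 2B pair. DNAJC2 overlaps the exons of PMPCB by 628 bases on the opposite strand and had 1107, 1598, 1121 and 850 counts. The libraries were made with a stranded kit, but whether strand was used in counting is not given in the sources used here, so reads of PMPCB and DNAJC2 in the overlap may not have been told apart. The same holds for TIMM8B, which shares 351 exon bases with NKAPD1, and for TIMM9, which shares 223 with KIAA0586. Further import genes overlap listed genes on the opposite strand too. Among them are TIMM22 by 154 exon bases with ABR, ROMO1 by 88 with NFS1 and LONP1 by 43 with RPL36. With C4-2B in place of LNCaP the LN-OlapR ratio of PMPCB was 0.04.

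IMMP1L and IMMP2L, the catalytic subunits of the inner-membrane peptidase, had the lowest levels per length of the 5 processing peptidase genes. IMMP1L had 213, 137, 135 and 202 counts, or 7.92, 5.87, 6.60 and 9.75 normalized CPM. LN-OlapR was 1.35-fold below LNCaP (-0.43, -0.74 to -0.12), whereas 2B-OlapR was 1.48-fold above C4-2B (0.56, 0.25 to 0.88). Set against C4-2B, IMMP1L in LN-OlapR was at -0.17, short of 1.3-fold. IMMP2L stood at 17.6, 25, 14.3 and 14.7, with LN-OlapR the highest and ratios of 0.51 (0.33 to 0.68) and 0.04 (-0.19 to 0.27).

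PARL, the inner-membrane rhomboid protease that makes a second cut in PINK1, differed more between the parental lines than within a pair. PARL stood at 36.4, 44.2, 53.5 and 56.4 normalized CPM, with both libraries of the C4-2B background above both of the LNCaP background. Its ratio was 0.28 (0.15 to 0.41) in the LN pair, 0.08 (-0.04 to 0.20) in the 2B pair and, in C4-2B against LNCaP, 0.55 (0.43 to 0.68).

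The matrix proteases were lowest in LNCaP and closer to each other in the other 3 libraries. CLPP, the proteolytic subunit of the ClpXP protease (ENSG00000125656.11, chr19:6361452-6368910, plus strand), stood at 63.7, 99.6, 101 and 119 normalized CPM. LONP1, the AAA+ protease of the matrix, stood at 244, 316, 318 and 310. The LN pair ratios were 0.65 (0.56 to 0.74) for CLPP, the highest of the set, and 0.37 (0.32 to 0.42) for LONP1. In the 2B pair they were 0.24 (0.16 to 0.33) and -0.04 (-0.09 to 0.01), and LN-OlapR against C4-2B gave -0.01 for both.

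The genes that meet PINK1 on its way had no common direction in either pair. PINK1 mRNA itself stood at 15.5, 21.4, 14.3 and 79.1 normalized CPM, which put LN-OlapR 1.38-fold above LNCaP and 2B-OlapR 5.54-fold above C4-2B. PINK1 had an edgeR p of 0.0424 and an adjusted p of 0.601. In the 2B pair, where PINK1 was highest, TOMM7, TOMM22 and TOMM40 had ratios of 0.26, 0.23 and 0.40, TOMM20 and PMPCB had -0.17 and -0.28, and PARL had 0.08. In the LN pair the first 3 were at -0.23, -0.19 and -0.13, and the last 3 at 0.36, 0.40 and 0.28.

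**Figure D3:**
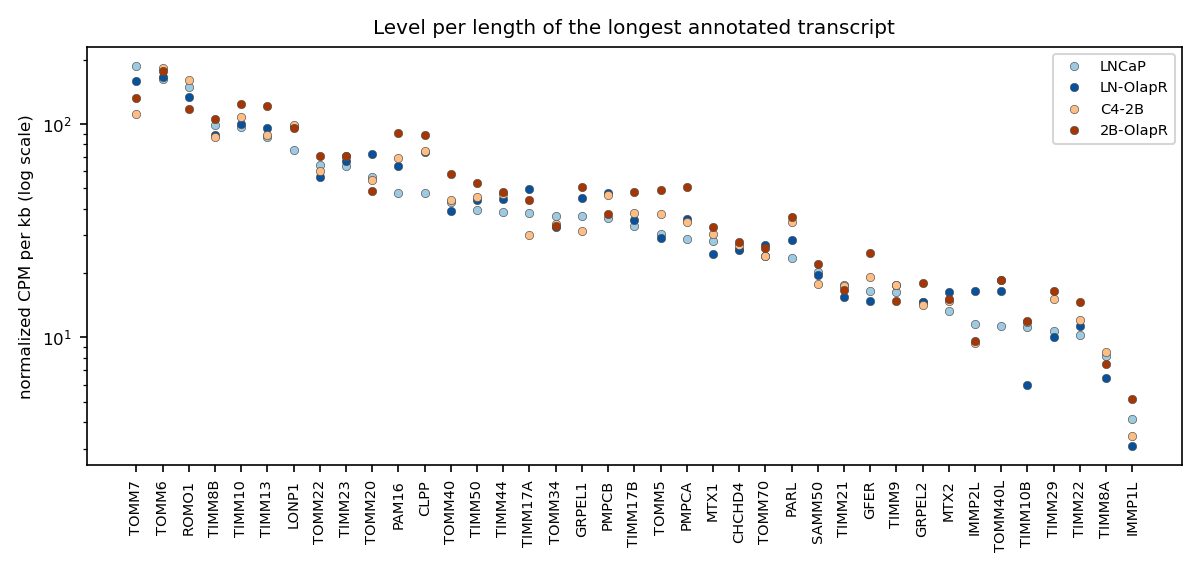
Level per kilobase of the longest annotated transcript (y axis, normalized CPM per kb, log scale) of the 39 import genes (x axis, ordered by level in LNCaP) in each library. TOMM7, TOMM6 and ROMO1 have the highest mean levels, with 111 to 186 normalized CPM per kb, and IMMP1L is at the bottom in every library.

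Levels of different genes were compared only per kilobase of the longest transcript in GENCODE release 29, which is an approximation of the transcript in use. On this scale the small subunits had the highest means over the libraries. TOMM6 had 162, 166, 183 and 177 normalized CPM per kb, TOMM7 had 186, 159, 111 and 133, and ROMO1 had 149, 133, 161 and 117. IMMP1L was the lowest in all 4 libraries, at 4.16, 3.08, 3.46 and 5.12 normalized CPM per kb. TIMM8A came next in all but LN-OlapR, where TIMM10B was at 5.99 and TIMM8A at 6.42. The order at the top was not fixed: TOMM7 was first in LNCaP and TOMM6 in the other 3 libraries, and in 2B-OlapR TIMM10 at 123 and TIMM13 at 122 lay above ROMO1 at 117. TOMM22 at 56.2 to 70.6 and TIMM23 at 63.6 to 70.8 normalized CPM per kb overlapped in their ranges over the libraries, as did TOMM70 at 23.9 to 27.0 and CHCHD4 at 25.5 to 28.0.

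Ratios between paralogs or partner subunits within a library do not depend on the scaling between libraries. Counts of PMPCA and PMPCB, not corrected for length, were near equal in 3 libraries. There were 1.08, 1.01 and 1.01 counts of PMPCA per count of PMPCB in LNCaP, LN-OlapR and C4-2B, and 1.80 in 2B-OlapR. The log2 difference was -0.10 (-0.21 to 0.01) in the LN pair and 0.83 (0.71 to 0.94) in the 2B pair. The libraries of the 2B pair thus differed in this balance by 1.78-fold. Per kilobase of the longest transcript, PMPCA stood at 28.9, 35.6, 34.7 and 50.6 normalized CPM and PMPCB at 36.1, 47.6, 46.2 and 38.0. The limit from the overlap of PMPCB with DNAJC2 applies here too.

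The balance of the inner-membrane peptidase subunits went opposite ways. Per count of IMMP2L there were 0.450, 0.235, 0.463 and 0.665 counts of IMMP1L, lowest in LN-OlapR and highest in 2B-OlapR. The log2 difference was -0.94 (-1.29 to -0.58) in the LN pair and 0.52 (0.13 to 0.91) in the 2B pair. TIMM10 to TIMM10B was 2.07, 3.99, 2.20 and 2.47, so that LN-OlapR stood apart, with a log2 difference of 0.95 (0.75 to 1.15) in the LN pair and 0.17 (-0.01 to 0.35) in the 2B pair.

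The pore genes and the metaxins had smaller differences. TOMM40 to TOMM40L was 4.59, 2.88, 2.89 and 3.79, highest in LNCaP, with log2 differences of -0.67 (-0.82 to -0.52) and 0.39 (0.25 to 0.53). MTX1 to MTX2 was 3.44, 2.46, 3.32 and 3.48, lowest in LN-OlapR, with -0.48 (-0.67 to -0.29) and 0.07 (-0.14 to 0.27). TIMM8A to TIMM8B was 0.213, 0.185, 0.253 and 0.183, lower in both resistant libraries, with -0.20 (-0.39 to -0.01) and -0.46 (-0.66 to -0.26). TIMM17A to TIMM17B was 1.90, 2.31, 1.31 and 1.51 and GRPEL1 to GRPEL2 was 1.71, 2.06, 1.497 and 1.90, both higher in each resistant library than in its parental one, by 0.28 and 0.21 for TIMM17A and by 0.27 and 0.35 for GRPEL1 on the log2 scale.

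**Figure D4:**
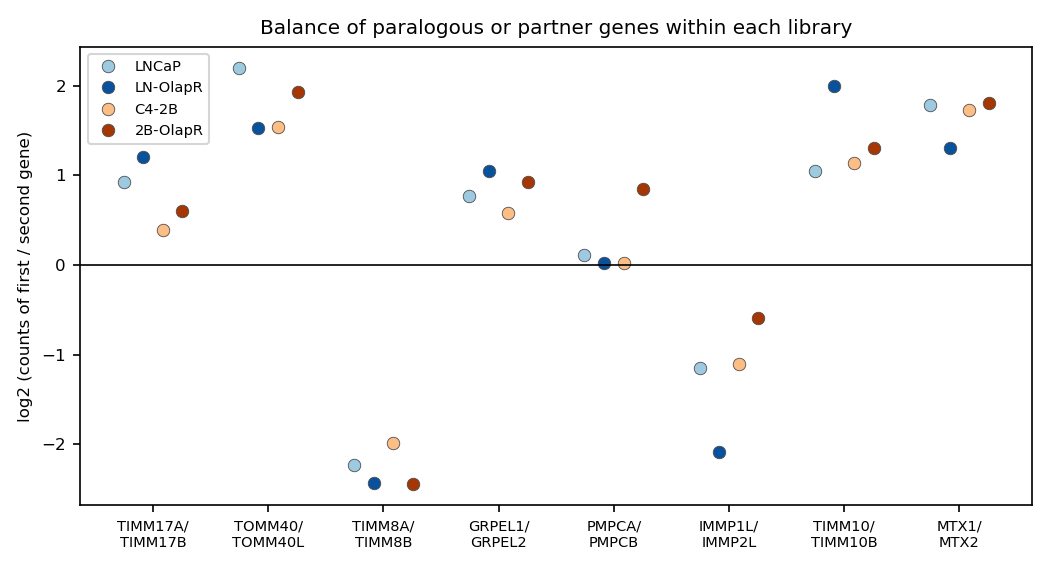
Log2 ratio of the counts of 2 paralogous or partner genes within each library (y axis) for 8 gene pairs (x axis), with 1 point per library. PMPCA to PMPCB lies near 0 in 3 libraries and at 0.85 in 2B-OlapR, and IMMP1L to IMMP2L is lowest in LN-OlapR at -2.09.

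The neighbours of the import genes on their chromosomes were read in the same way. For each gene the 10 nearest analyzed genes on either side were taken, and the median of the 20 had the same sign as the gene itself for 28 of 39 genes in the LN pair, for 23 in the 2B pair and for 21 in C4-2B against LNCaP. Over all genes analyzed with a position, it had the same sign for 62.1%, 63% and 62.3%. In the LN pair the neighbour medians ran from -0.46 at TIMM10B to 0.51 at PMPCB. Those of the 2B pair ran from -0.56 at TIMM9 to 0.53 at GRPEL1. Some genes differed from far neighbours: in the 2B pair TIMM23 was at 0.00 with a neighbour median of -0.41, and TIMM21 at -0.06 with -0.40. Other far values stood among neighbours near 0, with medians of 0.15 for CLPP in the LN pair and -0.05 for ROMO1, -0.04 for IMMP1L and -0.12 for TOMM40 in the 2B pair. Copy number was not measured, and its part in these values was not tested.

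**Figure D5:**
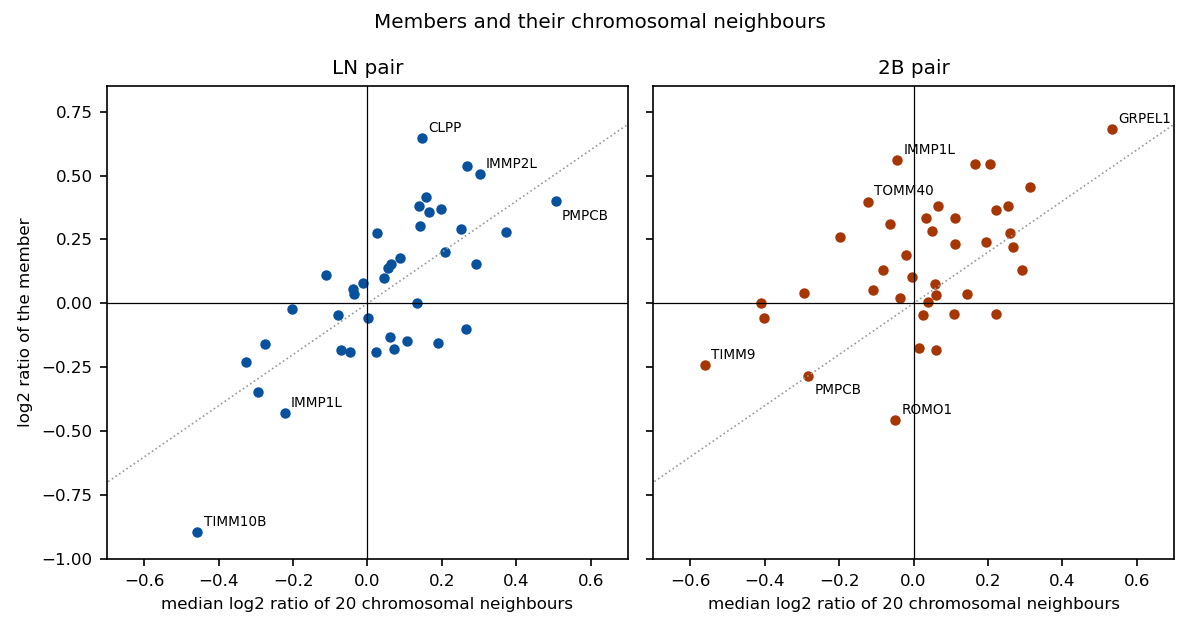
Log2 ratio of each import gene (y axis) against the median log2 ratio of its 20 nearest analyzed genes on the chromosome (x axis) in the LN pair (left) and the 2B pair (right), with a dotted line where both are equal. TIMM10B and PMPCB in the LN pair, and TIMM9, PMPCB and GRPEL1 in the 2B pair, have neighbour medians at least 0.28 away from 0, and CLPP and ROMO1 do not.

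Outside the 39 genes, other factors of the route had values of the same size. Of 14 further import factors, 7 were above 0 in the LN pair. There 4 were at least 1.3-fold higher, beside 17.8% of all genes, and 0 lower, beside 18.4%. In the 2B pair 8 of 13 analyzed were above 0, with 3 at least 1.3-fold higher, beside 18.7% of all genes, and 0 lower, beside 22.1%. DNAJC19, a J protein of the motor, was the highest in the LN pair at 0.60, with 15.2, 23.1, 15.3 and 16.2 normalized CPM. COX18, which inserts a subunit of complex IV, was the lowest there at -0.38, just short of 1.3-fold lower. In the 2B pair HSPA9 was the highest and MIPEP, a matrix peptidase that trims some cut precursors further, the lowest at -0.33. DNAJC15, a relative of DNAJC19, had 118 and 113 counts in LNCaP and LN-OlapR and 0 in C4-2B and 2B-OlapR. Taking 3 counts as the limit that a count of 0 allows in a library, it was at least 29.9-fold lower in C4-2B than in LNCaP and at least 33.5-fold lower in 2B-OlapR than in LN-OlapR.

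In MICOS, the complex that shapes cristae and touches SAM, 6 of 7 genes were above 0 in the LN pair and 5 in the 2B pair. Over all genes, 49.6% and 50% were above 0. The MICOS medians were 0.24 and 0.09. At least 1.3-fold higher were 3 of its genes in LN-OlapR, beside 17.8% of all genes, and 0 in 2B-OlapR, beside 18.7%. CHCHD3 was the highest of MICOS in both pairs, at 0.69 and 0.31, with 60.9, 98.0, 71.1 and 88.2 normalized CPM. The lowest were APOOL at -0.07 in the LN pair and CHCHD6 at -0.05 in the 2B pair.

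Among 12 other mitochondrial proteases and chaperones, the medians were 0.10 and 0.05. OMA1, the inner-membrane protease that responds to a lost membrane potential, stood at 25.5, 24.7, 19.3 and 11.4 normalized CPM, lowest in 2B-OlapR, with ratios of -0.05 and -0.76. PITRM1, which degrades cut presequences, was the highest of these in the LN pair at 0.41 and SPG7, an inner-membrane protease, the lowest at -0.25, and DNAJA3, a matrix J protein, was the highest in the 2B pair at 0.46. In 14 cytosolic targeting and extraction factors the medians were 0.02 and 0.13, with UBQLN2 at -0.46 and BTF3 at 0.32 as the ends of the LN pair and HSP90AA1 at -0.39 and DNAJA1 at 0.45 as those of the 2B pair.

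DELE1, which is cut by OMA1 and relays mitochondrial stress to the cytosol, was higher in both resistant libraries. DELE1 stood at 44.6, 73.4, 60.1 and 98.3 normalized CPM, with log2 ratios of 0.72 (0.61 to 0.83) and 0.71 (0.61 to 0.81), and had an edgeR p of 0.00638 and an adjusted p of 0.439. The list of 8 stress-relay genes it belongs to had medians of -0.14 and -0.27, with 4 and 2 of 8 above 0, beside 49.6% and 50% of all genes. CHAC1, a target of the ATF4 branch, was the lowest of the list in both pairs, at -0.48 and -1.65, with 9.82, 7.03, 19.8 and 6.32 normalized CPM. DDIT3, a transcription factor of the same branch, was the highest in the LN pair at 0.87 and was at -0.42 in the 2B pair.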

How the data were processed

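The authors made stranded mRNA libraries from 100 ng of RNA per line and deposited estimated counts per gene, not normalized. The submitters' processing notes name STAR, Partek, GRCh38 and hg38; the annotation, the quantifier and versions are not given in the sources used here. Of the values, 46.2% are not whole, and they were rounded. No gene sums to less than 10 over the 4 libraries.

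TMM factors and the quasi-likelihood test came from edgeR 4.0.16 in R 4.3.3, DESeq2 1.42.0 was an alternative, and ratios were computed in Python 3.11.15. A gene was analyzed where its mean over the pair reached 1 normalized CPM, and it was counted as higher or lower past 1.3-fold. Adjusted p-values are Benjamini-Hochberg values over all genes tested, with a threshold of 0.05. Positions and lengths are from GENCODE release 29, which matched all 39 genes by identifier. Scripts were tested on simulated data.

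The 39 genes, the other lists and the tests were chosen with earlier results of these data known. Named were the 4 highest and 4 lowest genes of each pair and the 3 of C4-2B against LNCaP, genes past 1.3-fold in both pairs, genes that meet PINK1, paralogs whose balance differed by over 1.3-fold, PINK1, and the highest and lowest gene of each further list. The other genes of the 39 are given by their ratios, and DNAJC15 was named after its values were seen. Alternatives were other scalings, pseudocounts, minimum levels and folds, pseudogene counts added, and members that share reads left out. Using C4-2B in place of LNCaP was chosen after seeing the data.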

Additional observations from a re-analysis of the deposited data

Results flagged for a closer look

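IMMP1L, a catalytic subunit of the inner-membrane peptidase, was past 1.3-fold in both pairs and in opposite directions, alone of the 39. So were 6.2% of the 14602 genes analyzed in both pairs. Its log2 ratio was -0.43 in the LN pair and 0.56 in the 2B pair, so the 2B ratio was 0.99 higher (counting interval 0.55 to 1.43). Against C4-2B, the LN-OlapR ratio of IMMP1L was -0.17, short of 1.3-fold. The gene had 135 to 213 counts per library, the fewest of the 39. With 1 library per line the difference between the pairs was not tested.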

How the results depend on the processing

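Scaled by total counts, the median log2 ratio in the LN pair was -0.0026 for the 39 genes and -0.088 for all genes. Of the 39, 3 genes were at least 1.3-fold higher there and 5 in the 2B pair. At 1.5-fold, the LN pair had 1 gene higher and 1 lower, the 2B pair 1 and 0, and C4-2B against LNCaP had 2 higher. How many of all genes passed these lines is not given here. At 2-fold, all of these counts, and that of genes lower in C4-2B, were 0. Of all genes, 713 were at least 2-fold higher and 742 lower of 15373 in the LN pair. In the 2B pair it was 687 and 877 of 15527, and in C4-2B against LNCaP 1246 and 1118 of 15580. With a minimum of 10 CPM, which leaves out IMMP1L, 1 gene was lower in the LN pair. With C4-2B in place of LNCaP, the LN median was -0.0745, with 14 genes above 0, and 15 genes changed side: TOMM6 to -0.138, SAMM50 to 0.131, TIMM10 to -0.109, TIMM17B to -0.105, TIMM23 to -0.0731, TOMM7 to 0.52, TIMM8B to 0.0436, TOMM40L to -0.17, TIMM22 to -0.10, TIMM50 to -0.0368, TIMM44 to -0.0745, PAM16 to -0.13, PARL to -0.27, CLPP to -0.0143 and LONP1 to -0.0130. The LNCaP library was replaced there by construction, with a line that is not the parent of LN-OlapR, and the cause of its distance was not tested. How many of all genes changed side in the same way is not given here. Without the replicate block of the 2 pairs, edgeR called 0 genes of the set and 363 genes in all had an unadjusted p under 0.05; leaving out each library in turn gave 0 to 0 calls in the set. Of the alternatives for medians, counts, balances and the test, 147 kept direction and size, 15 moved and 2 reversed. For single genes, 1019 values stayed within the counting interval, 33 left it, and 10 with an interval that left out 0 changed sign. All 10 sign changes and 17 of the 33 came with C4-2B in place of LNCaP, a change of cell line, and the other 16 under total counts. Of the 1019 values, 117 and 114 under other minimum levels and 90 without members that share reads could not change. The same holds for genes without a pseudogene when pseudogene counts were added. Counting limits mainly IMMP1L, with at most 213 counts.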
